A study of Mus musculus with 24 samples.

Results

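The unfolded protein response and the folding machinery of the endoplasmic reticulum (ER) were followed through 35 genes in mouse liver, out of 54733 genes in the tables. The genes were taken by name and cover the ER stress sensors and their transcription factors, the chaperones, isomerases and cofactors that fold secreted proteins, the channel and coat proteins that move them, and the machinery that degrades those that misfold. All 35 had exactly 1 row in each of the 24 libraries. Their mean levels ran from 2.16 FPKM for *Derl3* to 458 FPKM for *P4hb*, where FPKM are fragments mapped to a gene, scaled by its length and by the depth of the library. Each gene passed the filter of a mean of at least 1 FPKM, as did 11244 of all genes.

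The libraries came from poly(A) RNA of livers of male C57BL/6 mice kept in constant darkness. WT mice were compared with delta-RRE mice (ΔRRE below), which are homozygous for a deletion of the RREs, the binding elements of ROR and REV-ERB receptors, upstream of *Bmal1* (*Arntl* in the tables), made by CRISPR editing of embryos. There were 12 libraries per genotype, 2 at each of 6 circadian times (CT) spaced 4 h apart, from CT2 to CT22. The labels number 2 replicates per genotype and time point and do not say whether they came from separate mice. The p-values measure only the spread of these libraries around the fitted values. As a check of the mutation, the 24-h component of *Arntl* had an amplitude of 2.57 in WT and 0.29 in ΔRRE on the log2 scale (SE 0.13 in both), and its difference was the only one called by limma among all genes (adjusted p = 1.94e-05).

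The ER lumen folds secreted and membrane proteins, and hepatocytes, which secrete most plasma proteins, carry a large share of that work. When unfolded proteins build up, the sensors IRE1 (*Ern1*), PERK (*Eif2ak3*) and ATF6 are released from the chaperone BiP (*Hspa5*). IRE1 splices *Xbp1* mRNA, PERK slows translation and raises ATF4, and ATF6 is cut to an active factor, and together these raise the genes for chaperones and for ER-associated degradation. XBP1 and ATF6 act with NF-Y at the ER stress response elements ERSE and ERSE-II. Rhythms of about 12 h in such genes are known in mouse liver, so a 12-h component was fitted beside the 24-h one.

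The response elements are shown first because they show which of the 35 promoters carry the letters of the pathway's own elements. The RefSeq windows of 250 bases before to 50 bases after the annotated start (GRCm38.p6, the assembly that mm10 names) covered 30 of the 35 genes with 32 windows. *Atf6*, *Derl1*, *Hyou1*, *Manf* and *Sec61a1* had no window. Both strands were searched for exact matches, and near matches were not searched. ERSE, written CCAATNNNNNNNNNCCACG, was found in 9 of the 32 windows (28.1%) and in 39 of all 32851 windows (0.119%). The 10 matches are given below in the orientation of the element, with its outer parts in capitals and 10 bases on either side. Over all genes with a window, 37 held an ERSE, 9 of them among the 35.
*Hspa5*, chr2:34772025-34772043, + strand: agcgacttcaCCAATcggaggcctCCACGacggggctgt
*Hsp90b1*, distal, chr10:86705638-86705656, - strand: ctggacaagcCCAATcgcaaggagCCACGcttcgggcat
*Hsp90b1*, proximal, chr10:86705533-86705551, + strand: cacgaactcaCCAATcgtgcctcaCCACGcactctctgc
*Calr*, chr8:84847075-84847093, + strand: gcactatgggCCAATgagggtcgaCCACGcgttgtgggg
*Canx*, chr11:50325800-50325818, - strand: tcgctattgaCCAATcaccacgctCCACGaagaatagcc
*Creld2*, chr15:88819520-88819538, - strand: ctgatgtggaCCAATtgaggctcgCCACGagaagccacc
*Derl3*, chr10:75893242-75893260, - strand: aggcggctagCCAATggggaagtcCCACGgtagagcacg
*Dnajc3*, chr14:118937827-118937845, + strand: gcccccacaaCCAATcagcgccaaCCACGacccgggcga
*Pdia6*, chr12:17266491-17266509, + strand: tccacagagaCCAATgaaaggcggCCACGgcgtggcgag
*Syvn1*, chr19:6046532-6046550, + strand: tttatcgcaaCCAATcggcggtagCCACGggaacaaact

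Between the fixed parts, 6 or 7 of the 9 bases were G or C in every match (66.7% or 77.8%). Those letters were free in the search, and the share of G and C in the windows as a whole was not computed. All 10 matches lay upstream of the annotated start. The nearest was that of *Syvn1*, from base -44 to -26, and the farthest was the distal one of *Hsp90b1*, from -212 to -194. *Calr*, *Creld2*, *Derl3* and the proximal element of *Hsp90b1* faced against the gene. ERSE-II, written ATTGGNCCACG, was found in 2 of the 32 windows (6.2%) and in 12 of all windows (0.0365%), in *Dnajb11* from base 7 to 17 after the start and in *Herpud1* from -52 to -42.
*Dnajb11*, chr16:22857852-22857862, + strand: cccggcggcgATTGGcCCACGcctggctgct
*Herpud1*, chr8:94386377-94386387, + strand: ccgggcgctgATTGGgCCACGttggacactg

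**Figure D1:**
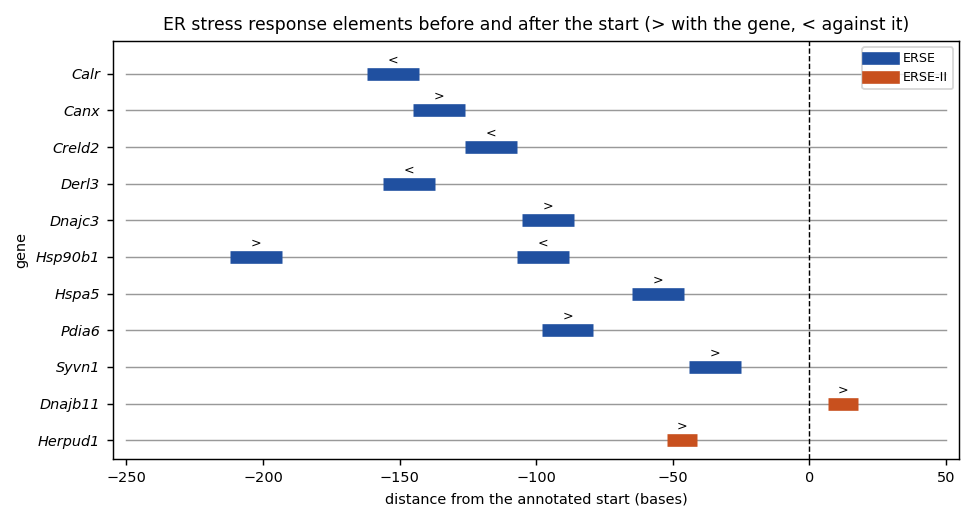
Position of each ERSE (blue) and ERSE-II (orange) match in the window of 11 genes, in bases from the annotated start, with arrowheads for its orientation. The ERSE matches all lie before the start, from base -212 to -26, and the ERSE-II of *Dnajb11* lies just after it.

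The 250 bases before the start of *Hspa5*, the gene of the chaperone BiP, and of the degradation genes *Syvn1* and *Herpud1* are printed because these 3 genes return in the results. All 3 are on the + strand, and the capitals mark the whole ERSE or ERSE-II match.
*Hspa5*, chr2:34771840-34772089: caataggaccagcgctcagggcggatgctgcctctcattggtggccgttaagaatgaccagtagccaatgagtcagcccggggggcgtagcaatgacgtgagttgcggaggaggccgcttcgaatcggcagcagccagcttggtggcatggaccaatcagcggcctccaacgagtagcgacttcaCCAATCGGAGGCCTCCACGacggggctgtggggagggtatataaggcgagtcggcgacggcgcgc
*Syvn1*, chr19:6046326-6046575: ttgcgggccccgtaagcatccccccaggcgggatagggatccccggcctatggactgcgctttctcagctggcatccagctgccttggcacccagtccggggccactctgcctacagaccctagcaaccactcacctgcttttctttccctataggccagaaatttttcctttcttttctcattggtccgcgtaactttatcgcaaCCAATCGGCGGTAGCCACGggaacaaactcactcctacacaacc
*Herpud1*, chr8:94386179-94386428: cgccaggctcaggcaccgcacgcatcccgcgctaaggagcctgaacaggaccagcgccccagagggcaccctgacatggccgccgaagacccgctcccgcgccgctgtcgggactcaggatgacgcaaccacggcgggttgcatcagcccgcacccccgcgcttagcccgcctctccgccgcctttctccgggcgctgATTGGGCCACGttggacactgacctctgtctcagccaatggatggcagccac

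Other short elements were searched in the same windows. The UPRE letters TGACGTGG, a site of ATF6 and XBP1, were found in the window of *Sec24d* only (3.1% of the member windows and 0.676% of all). TGATGCAA, a form of the element that ATF4 binds, was found in that of *Herpud1* only (0.895% of all). The E-box CACGTG, the site of CLOCK-BMAL1, was found in *Calr*, *Derl3*, *Dnajb9*, *Selenos* and *Ssr1* (15.6% of member windows and 7.15% of all). TAGGTCA, a form of the final letters of the RRE, was found in *Selenos* only (2.61% of all). The RRE as the paper writes it is longer, and the letters before this match (acga) differ from it. The match is therefore not a full RRE. The full element and TGGGTCA, an ending that the paper also allows, were not searched. The letters CCACG end both elements and are also part of TGACGTGG read on the other strand. A match is a description of the window and was not tested for binding.

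The levels were then compared across time. The quantity tested was log2(FPKM + 0.1), and the amplitude of a component is the distance on that scale from its mean to its peak. In whole liver, fewer cells of a type and less RNA per cell cannot be told apart. In ΔRRE the highest time-point mean was at CT14 for 17 genes (20.1% of all genes) and at CT18 for 15 (17.9%), and the lowest was at CT10 for 24 (21.2%). In WT the highest mean was at CT18 for 23 genes (11.7% of all genes), and the lowest was at CT22 for 15 (18.7%) and at CT10 for 11 (16.6%).

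The WT peak at CT18 rested on a single library. Its library 2 held the highest WT value of 23 of the 35 genes, and with CT18 given by library 1 alone, the highest WT mean was at CT18 for 2 genes, at CT6 for 12 and at CT14 for 11. In ΔRRE the highest values were spread over CT14 library 2 (14 genes) and CT18 library 2 (13 genes), and 16 genes were lowest in CT10 library 1.

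**Figure D2:**
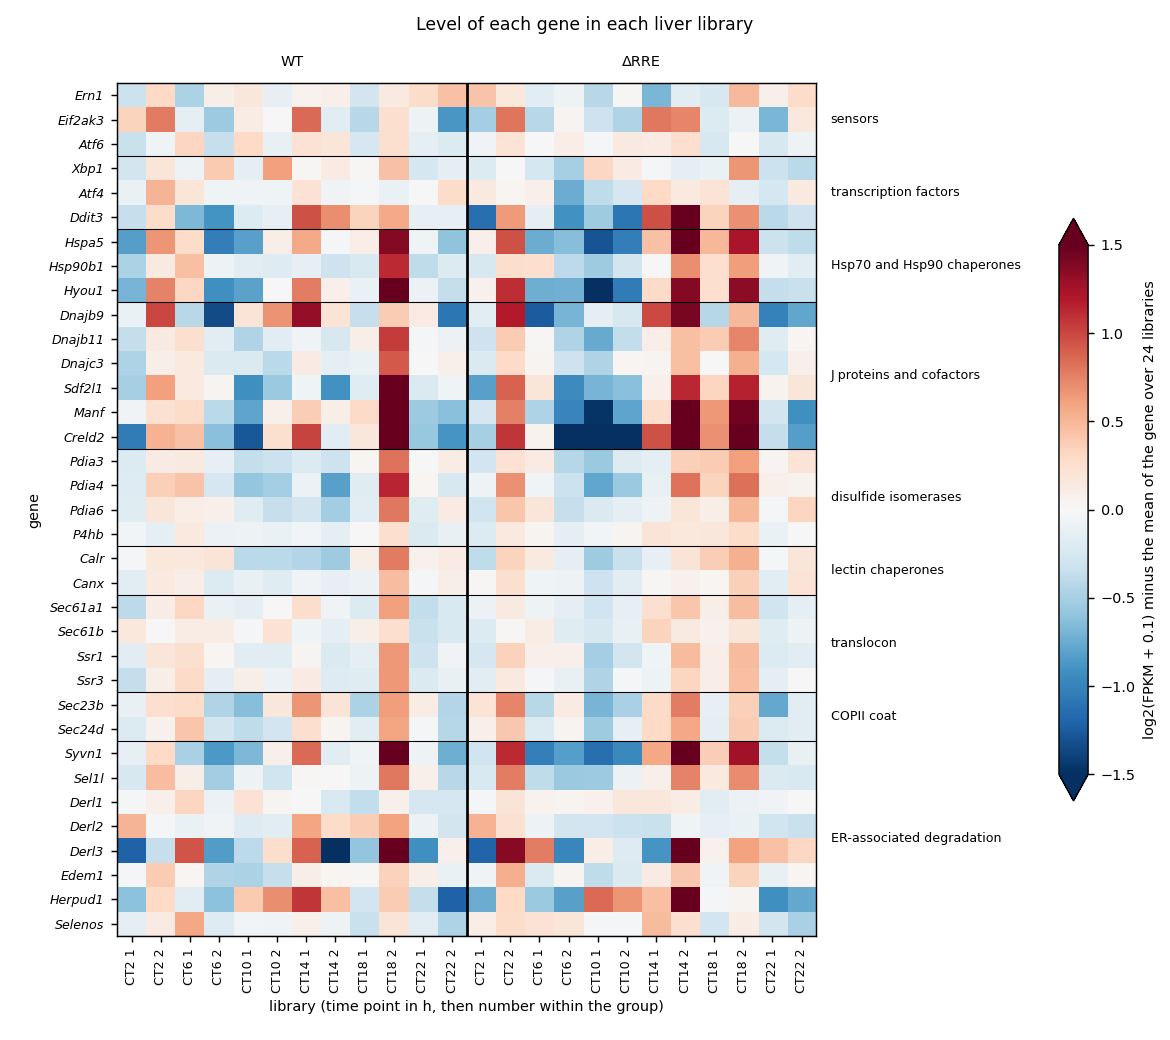
Level of each of the 35 genes (rows, grouped by role) in each of the 24 libraries (columns), as log2(FPKM + 0.1) minus the gene's mean, with WT on the left. Libraries 2 of WT CT2 and CT18 and of ΔRRE CT2, CT14 and CT18 are red across most rows. In that order, 31, 34, 34, 32 and 31 of 35 genes are above their mean.

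A 24-h component was called for 4 of the 35 genes over both genotypes (limma, joint F-test, adjusted p under 0.05). They were *Herpud1*, *Ddit3*, *Calr* and *Syvn1*. This share, 11.4%, was below the 20.4% of all genes called in the same test. At an unadjusted p under 0.05, 11 of the 35 passed, against 34.6% of all genes, and 7 passed without ΔRRE CT6 library 2 or without ΔRRE CT18 library 2. The median 24-h amplitude of the 35 genes was 0.18, close to the 0.17 of all genes.

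*Herpud1*, a membrane protein that helps assemble the degradation complex, had the smallest adjusted p. In WT, *Herpud1* measured 72.9 and 138 FPKM at CT2, 99.6 and 72.9 at CT6, 147 and 182 at CT10, 236 and 154 at CT14, 92.1 and 146 at CT18 and 87.8 and 48.3 at CT22. Its values in ΔRRE were 66.8 and 139 FPKM at CT2, 76.2 and 63.6 at CT6, 202 and 178 at CT10, 153 and 321 at CT14, 109.7 and 116 at CT18 and 59.3 and 66 at CT22. CT10 and CT14 were high in both genotypes, and the 4 values of CT22 (48.3 to 87.8 FPKM) lay below all 8 of CT10 and CT14. The fitted 24-h amplitude was 0.65 in WT, with a peak at 12.5 h, and 0.83 in ΔRRE, with a peak at 12.8 h (SE 0.17 in both, joint adjusted p = 0.00449).

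*Ddit3*, which encodes CHOP, a factor raised by the PERK branch, peaked later. Its row carries a pair of gene identifiers, so its FPKM may join overlapping genes. *Ddit3* in WT was at 7.09 and 11 FPKM at CT2, 5.63 and 4.82 at CT6, 7.86 and 8.3 at CT10, 17.7 and 14.7 at CT14, 11.4 and 13.5 at CT18 and 8.27 and 8.31 at CT22. *Ddit3* in ΔRRE was at 4.08 and 14.1 FPKM at CT2, 8.23 and 4.76 at CT6, 6.2 and 4.2 at CT10, 17.8 and 26.7 at CT14, 11.4 and 14.6 at CT18 and 6.8 and 7.26 at CT22. In each genotype both CT14 libraries lay above every library of CT6, CT10 and CT22, while the 2 ΔRRE libraries of CT2 differed by 1.76 on the log2 scale. The amplitude was 0.61 in WT and 0.74 in ΔRRE (SE 0.17), with peaks at 16.5 and 16.4 h, and the joint adjusted p was 0.00673.

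*Calr*, the calcium-binding lectin chaperone calreticulin, carries an ERSE and was the most stable of the 4 between libraries, with a replicate SD of 0.235. In WT, *Calr* measured 349.7 and 401 FPKM at CT2, 399.8 and 408 at CT6, 272 and 272 at CT10, 265 and 247 at CT14, 380 and 616 at CT18 and 376 and 391 at CT22. In ΔRRE, *Calr* measured 275 and 451 FPKM at CT2, 394 and 328 at CT6, 248 and 285 at CT10, 329 and 408 at CT14, 463 and 519 at CT18 and 354 and 405 at CT22. The WT values of CT10 and CT14, between 246.7 and 271.7 FPKM, lay below the other 8 WT values, and in ΔRRE the CT18 values were the highest. The 24-h peak was at 23.0 h in WT and 19.9 h in ΔRRE, with amplitudes of 0.31 and 0.28 (SE 0.09, joint adjusted p = 0.0251). Without 1 of 4 ΔRRE libraries (CT6 library 2, CT10 library 1, CT18 library 2 or CT22 library 2) the call was lost, with an adjusted p of up to 0.0514.

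*Syvn1*, the ubiquitin ligase HRD1 of the degradation complex, has its ERSE nearest to the start. *Syvn1* in WT was at 28.5 and 38.3 FPKM at CT2, 22.3 and 17.2 at CT6, 19.5 and 33 at CT10, 56.4 and 27.7 at CT14, 30 and 90.5 at CT18 and 29.6 and 18.7 at CT22. Its values in ΔRRE were 25.4 and 68.1 FPKM at CT2, 15.2 and 17.6 at CT6, 14.1 and 16 at CT10, 46.6 and 108 at CT14, 40.4 and 75 at CT18 and 24.4 and 28.9 at CT22. The high values were library 2 of CT18 in WT and libraries 2 of CT2, CT14 and CT18 in ΔRRE, and library 1 was lower in each of these groups. The amplitude was 0.51 in WT and 0.85 in ΔRRE (SE 0.22, joint adjusted p = 0.0398). The call was lost without 15 of the 24 libraries in turn, with an adjusted p of up to 0.121 without ΔRRE CT18 library 2.

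*Manf* and *Pdia3* fell just outside the call. *Manf*, a cofactor of BiP that is also secreted, had a joint adjusted p of 0.0506, and *Pdia3*, the disulfide isomerase that works with calreticulin and calnexin, of 0.0533. *Pdia3* in WT ran from 132 FPKM (CT10, library 1) through a median of 162 to 296 FPKM (CT18, library 2). In ΔRRE, *Pdia3* ran from 115 (CT10, library 1) through 179 to 258 FPKM (CT18, library 2). Both genes were called when the libraries were rescaled by the median of ratios, with adjusted p = 0.0409 for *Manf* and 0.0302 for *Pdia3*, and *Manf* ran from 0.0192 to 0.169 without single libraries.

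By single genotype, 2 of the 35 genes were called for the 24-h component in WT (*Herpud1* and *Ddit3*) and 4 in ΔRRE (*Herpud1*, *Ddit3*, *Manf* and *Syvn1*). Of all genes, 14.4% were called in WT and 11.9% in ΔRRE. The fitted 24-h amplitude was larger in ΔRRE for 28 of the 35 genes, against 46.3% of all genes, and the medians were 0.19 in WT and 0.22 in ΔRRE. At an unadjusted p under 0.05 there were 6 genes in WT (30.1% of all genes) and 12 in ΔRRE (27.3% of all genes). The WT count was 10 without WT CT18 library 1, and the ΔRRE count was 6 without ΔRRE CT18 library 2. By the 3 criteria of the study (p under 0.3, a highest mean over 1.5 times the lowest and a largest SD of a time point within 1.5 times their difference), with the harmonic p used here, 17 of the 35 passed in WT and 19 in ΔRRE, where 37.7% and 37.2% of all genes passed.

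**Figure D3:**
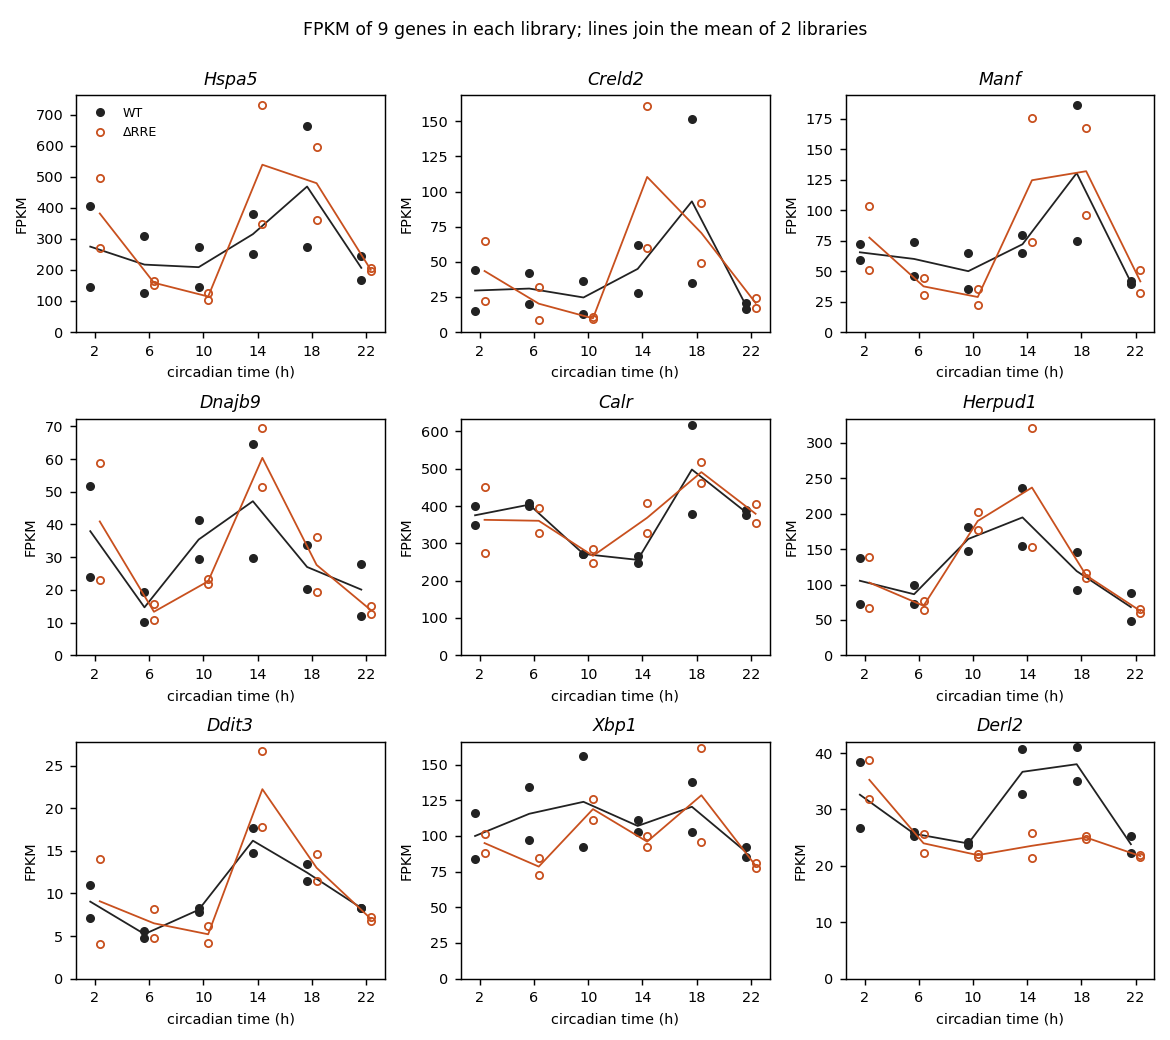
FPKM of 9 genes by circadian time in hours; each point is a library of WT (filled) or ΔRRE (open), and lines join the means of 2 libraries. *Herpud1* is high at CT10 and CT14 in both genotypes, *Creld2* and *Hspa5* show wide pairs at several time points in both genotypes, CT2 among them, and *Derl2* is lower in ΔRRE at CT14 and CT18.

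No 12-h component passed the adjusted threshold. Of the 35 genes, 0 were called in the joint F-test of limma, where 0.409% of all genes were, and the smallest adjusted p was 0.123. At an unadjusted p under 0.05, 17 of the 35 passed, against 13% of all genes. The median 12-h amplitude over both genotypes was 0.25, against 0.11 for all genes and 0.10 for 113 other genes of the secretory pathway. By single genotype, the median was 0.249 in WT and 0.278 in ΔRRE, against 0.129 and 0.146 for all genes. Over both genotypes, 12 of the 35 genes were above the 90th percentile of all genes, 0.287. These 12 were *Creld2*, *Dnajb9*, *Manf*, *Hyou1*, *Syvn1*, *Hspa5*, *Ddit3*, *Eif2ak3*, *Sec23b*, *Sdf2l1*, *Herpud1* and *Pdia4*. An amplitude cannot be negative and grows with the spread of a gene, and the 35 genes also had a wider replicate spread than the median gene, and the part of this spread in the amplitudes was not tested. With samples 4 h apart, a 12-h component is also what a 24-h wave with an uneven shape gives.

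Most 12-h peaks fell in one window. Its bounds were not part of the plan of the tests and may follow these same peaks. The counts describe the fitted peaks and were not tested. In the fit over both genotypes 28 of the 35 genes peaked between 2 and 6 h (that is, also 12 h later, between CT14 and CT18), against 40.0% of all genes. In WT alone 23 did and in ΔRRE alone 30, against 34.3% and 43.3% of all genes. The 35 genes share the same libraries and moved together in them, so they are not 35 separate observations.

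**Figure D4:**
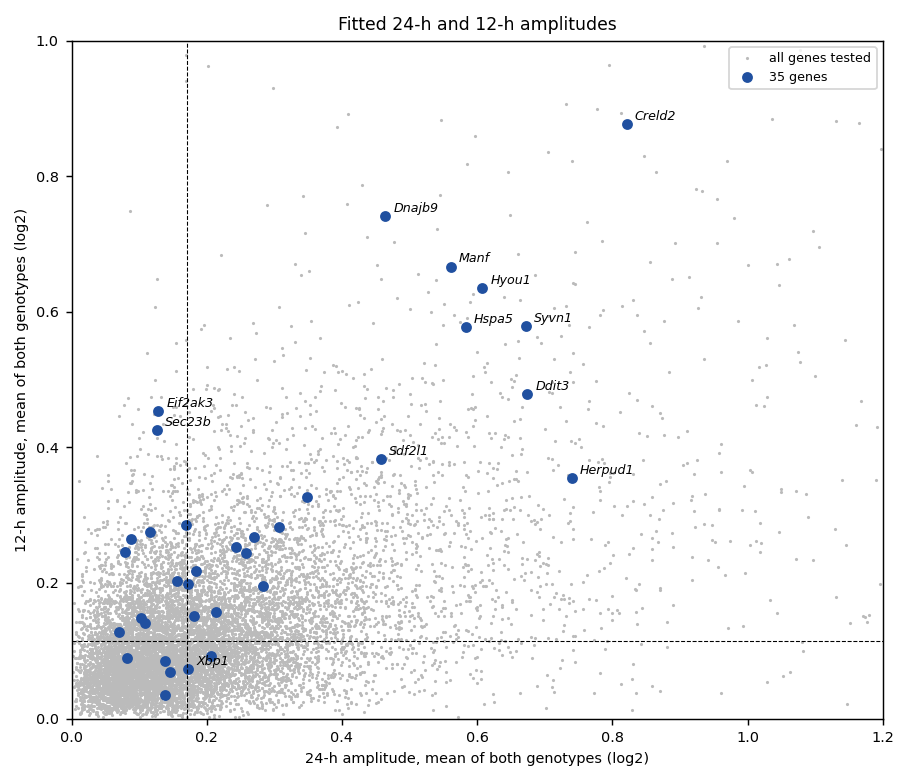
Fitted 24-h (x) and 12-h (y) amplitude on the log2 scale of the 35 genes (blue) and all 11244 genes tested (grey, 131 beyond the axes). Each amplitude was taken after the cosine and sine terms were averaged over both genotypes. Dashed lines mark the medians of all genes. *Creld2*, *Dnajb9*, *Manf*, *Hyou1*, *Syvn1* and *Hspa5* have the highest 12-h amplitudes, 0.58 to 0.88, and 29 of the 35 genes lie above the 12-h median.

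Of the J proteins and cofactors, *Creld2*, a secreted ER protein whose window holds an ERSE, had the highest 12-h amplitude. In WT, *Creld2* measured 14.8 and 44.2 FPKM at CT2, 41.9 and 19.9 at CT6, 12.7 and 36.4 at CT10, 62.2 and 27.7 at CT14, 34.6 and 152 at CT18 and 20.8 and 16.7 at CT22. *Creld2* in ΔRRE was at 21.8 and 65 FPKM at CT2, 31.9 and 8.47 at CT6, 9 and 10.5 at CT10, 59.9 and 161 at CT14, 49.4 and 91.6 at CT18 and 24.1 and 17.4 at CT22. Both ΔRRE libraries of CT10 were under 11 FPKM, while the 2 WT libraries of CT18 were 2.13 apart on the log2 scale. The 12-h amplitude was 0.88 (SE 0.23), with 0.69 in WT and 1.22 in ΔRRE. The joint limma test gave an adjusted p of 0.191.

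*Manf* had the third highest 12-h amplitude. *Manf* in WT was at 58.9 and 71.8 FPKM at CT2, 73.8 and 46 at CT6, 35.2 and 64.5 at CT10, 79.1 and 64.7 at CT14, 74.8 and 186 at CT18 and 41.9 and 39.6 at CT22. In ΔRRE, *Manf* measured 51.2 and 104 FPKM at CT2, 44.1 and 30.7 at CT6, 22 and 35.4 at CT10, 73.6 and 175 at CT14, 96.2 and 167 at CT18 and 50.6 and 32.4 at CT22. In ΔRRE the 4 values of CT14 and CT18 lay above those of CT6, CT10 and CT22, and in WT the highest value came from CT18 library 2. Its 12-h amplitude was 0.67 (SE 0.14), with an adjusted p of 0.123.

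*Dnajb9*, the J protein that sends bound client proteins to degradation and holds IRE1 in check, peaked earlier. In WT, *Dnajb9* measured 24.1 and 51.8 FPKM at CT2, 19.2 and 10.1 at CT6, 29.5 and 41.3 at CT10, 64.5 and 29.7 at CT14, 20.3 and 33.7 at CT18 and 28.1 and 12.1 at CT22. Its values in ΔRRE were 23.2 and 58.7 FPKM at CT2, 10.8 and 15.8 at CT6, 23.4 and 21.9 at CT10, 51.4 and 69.4 at CT14, 19.2 and 36.1 at CT18 and 12.7 and 15 at CT22. CT14 was high and CT6 low in both genotypes, and the 4 values of CT6 (10.1 to 19.2 FPKM) lay below all 4 of CT14. The 12-h amplitude was 0.74 (SE 0.16) with a peak at 1.75 h, and the adjusted p was 0.139. The remaining cofactors *Sdf2l1*, *Dnajb11* and *Dnajc3* had 12-h amplitudes of 0.38, 0.28 and 0.16, and their highest WT value was in CT18 library 2.

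Of the Hsp70 and Hsp90 chaperones, *Hspa5* encodes BiP, the main ER Hsp70. *Hspa5* in WT was at 145 and 406 FPKM at CT2, 310 and 124 at CT6, 145 and 273 at CT10, 380.4 and 250.4 at CT14, 273 and 665 at CT18 and 245 and 169 at CT22. *Hspa5* in ΔRRE was at 269 and 495 FPKM at CT2, 153 and 164 at CT6, 104 and 125 at CT10, 347 and 732 at CT14, 362 and 598 at CT18 and 205 and 196 at CT22. In ΔRRE the CT14 and CT18 values, 347 to 731.5 FPKM, lay above all those of CT6, CT10 and CT22, while in WT the CT18 pair (273 and 665 FPKM) spanned the highest values of CT2, CT6 and CT14. The 12-h amplitude was 0.33 in WT and 0.87 in ΔRRE, and the test of that difference gave an unadjusted p of 0.154.

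*Hyou1* (GRP170) is the exchange factor of BiP, with a 12-h amplitude of 0.64 (SE 0.17). *Hyou1* in WT ran from 19 FPKM (CT6, library 2) through a median of 35.1 to 119 FPKM (CT18, library 2). In ΔRRE, *Hyou1* ran from 9.8 (CT10, library 1) through 33.3 to 94.4 FPKM (CT14, library 2). The lowest value was that of ΔRRE CT10 library 1 and the highest that of WT CT18 library 2. *Hsp90b1* (GRP94) varied less, with a 12-h amplitude of 0.29 and a 24-h amplitude of 0.17.

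Of the isomerases, *P4hb*, the abundant protein disulfide isomerase, spanned 1.38 times in WT and 1.4 times in ΔRRE from its lowest to its highest library. *P4hb* in WT ran from 394 FPKM (CT22, library 1) through a median of 432 to 542 FPKM (CT18, library 2). In ΔRRE, *P4hb* ran from 395 (CT2, library 1) through 469.5 to 553 FPKM (CT18, library 2). The ranges of the genotypes overlapped. The 12-h amplitude of *Calr* was 0.27 (SE 0.06, adjusted p = 0.165), and those of *Pdia4*, *Pdia3*, *Pdia6* and *Canx* were 0.33, 0.20, 0.15 and 0.09.

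Of the sensors and transcription factors at the head of the pathway, only *Ddit3* was called. *Xbp1* is spliced by IRE1, and gene-level FPKM do not separate its spliced from its unspliced form. In WT, *Xbp1* measured 84 and 116 FPKM at CT2, 97 and 134 at CT6, 92 and 156 at CT10, 103 and 111 at CT14, 103 and 138 at CT18 and 85.2 and 92.2 at CT22. In ΔRRE, *Xbp1* measured 88.2 and 102 FPKM at CT2, 84.6 and 72.4 at CT6, 126 and 112 at CT10, 100.1 and 91.9 at CT14, 95.5 and 162 at CT18 and 81.3 and 77.2 at CT22. High and low values of *Xbp1* were scattered over the time points, and the joint adjusted p was 0.514 for 24 h and 0.98 for 12 h. Its 12-h amplitude, 0.07, was above that of 28.7% of all genes tested.

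*Ern1* (IRE1) had a larger 24-h amplitude in ΔRRE, 0.32, than in WT, 0.13 (SE 0.11, unadjusted p of the difference = 0.293). *Ern1* in WT ran from 7.5 FPKM (CT6, library 1) through a median of 11 to 14.2 FPKM (CT22, library 2). In ΔRRE, *Ern1* ran from 6.43 (CT14, library 1) through 10.3 to 14.7 FPKM (CT18, library 2). *Atf6* was the most even of the sensors. *Atf6* in WT ran from 7.42 FPKM (CT6, library 2) through a median of 8.9 to 11.8 FPKM (CT6, library 1). In ΔRRE, *Atf6* ran from 7.96 (CT22, library 1) through 9.5 to 11.3 FPKM (CT14, library 2). Its joint adjusted p was 0.302 for 24 h and 0.932 for 12 h.

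*Eif2ak3* (PERK) was the sensor with the highest 12-h amplitude, 0.45 (SE 0.12, adjusted p = 0.325). *Eif2ak3* in WT ran from 2.25 FPKM (CT22, library 2) through a median of 4.1 to 7.66 FPKM (CT14, library 1). In ΔRRE, *Eif2ak3* ran from 2.58 (CT22, library 1) through 3.78 to 7.38 FPKM (CT2, library 2). Its high values were at CT2 and CT14, where 6 of 8 libraries lay above 5 FPKM, and the only other library above 5 FPKM was WT CT18 library 2. *Atf4*, whose protein is raised mainly through translation, had a joint adjusted p of 0.473 for 24 h. *Atf4* in WT ran from 42.9 FPKM (CT2, library 1) through a median of 45 to 65.5 FPKM (CT2, library 2). In ΔRRE, *Atf4* ran from 27.5 (CT6, library 2) through 47.8 to 56.6 FPKM (CT14, library 1). The lowest *Atf4* value was that of ΔRRE CT6 library 2.

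Among the genes of translocation, export and degradation, the COPII coat protein *Sec23b* had a 12-h amplitude of 0.43 and its partner *Sec24d*, the window with the UPRE letters, of 0.28. The translocon genes *Ssr1*, *Sec61a1*, *Ssr3* and *Sec61b* had 12-h amplitudes of 0.25, 0.20, 0.14 and 0.13. *Sec61b*, the small subunit of the SEC61 channel, had one of the 3 lowest p-values, with *Derl2* and *Calr*, for a 24-h difference between the genotypes. *Sec61b* in WT ran from 54.5 FPKM (CT22, library 1) through a median of 71 to 82.1 FPKM (CT18, library 2). In ΔRRE, *Sec61b* ran from 58.1 (CT10, library 1) through 67.4 to 86.8 FPKM (CT14, library 1). That difference did not pass (unadjusted p = 0.128, and 0.184 for *Calr*). Of the degradation genes besides *Syvn1*, *Herpud1* and *Derl2*, *Derl3*, *Sel1l*, *Edem1*, *Selenos* and *Derl1* had 12-h amplitudes from 0.03 to 0.25, and *Derl3*, at a mean of 2.16 FPKM, had the widest replicate spread of the 35 genes (SD 1.24).

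The 12-h component was also tested in each genotype. In ΔRRE 15 of the 35 passed at p under 0.05 (13.7% of all genes), and in WT 2 passed, *Calr* and *Derl2* (7.57% of all genes). The WT count rested on the libraries in the fit. It was 14 without WT CT18 library 1, 9 without WT CT6 library 2, 7 without WT CT10 library 2, 6 without ΔRRE CT2 library 1, 5 without WT CT14 library 2 or ΔRRE CT2 library 2, and 4 without WT CT2 library 2, WT CT22 library 1 or ΔRRE CT18 library 2. After rescaling by the median of ratios 7 genes passed in WT and 13 in ΔRRE, and without single libraries the ΔRRE count ran from 10 to 19. None was called after adjustment, with 0 of 35 in ΔRRE (0.427% of all genes called) and 0 of 35 in WT (0.0267%). No difference between the genotypes was detected. In the test of the 12-h difference 0 of 35 genes passed at either threshold (3.46% of all genes at an unadjusted p under 0.05 and 0% after adjustment). The 12-h amplitude was larger in ΔRRE for 23 of the 35 genes, against 57.8% of all genes. The smallest unadjusted p values were those of *Creld2* (0.153), *Hspa5* (0.154) and *Hyou1* (0.209).

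The mean level over the 6 time points was compared between the genotypes. It was higher in ΔRRE for 22 genes and lower for 13, where 65.5% of all genes were higher. The differences ran from -0.24 for *Derl2* to 0.37 for *Derl3*, and 0 were called by limma (0% of all genes were). At an unadjusted p under 0.05 there was 1 gene, *Derl2*, against 8.91% of all genes. For the difference of the 24-h component 0 of 35 were called (0.00889% of all genes) and *Derl2* again was the single gene with an unadjusted p under 0.05 (3.29% of all genes).

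*Derl2* encodes a derlin, a membrane protein through which misfolded proteins leave the ER lumen. *Derl2* in WT was at 38.5 and 26.8 FPKM at CT2, 25.3 and 26.1 at CT6, 23.7 and 24.2 at CT10, 40.7 and 32.7 at CT14, 35 and 41 at CT18 and 25.3 and 22.3 at CT22. Its values in ΔRRE were 38.7 and 31.8 FPKM at CT2, 25.6 and 22.3 at CT6, 22.2 and 21.6 at CT10, 21.4 and 25.8 at CT14, 24.8 and 25.2 at CT18 and 21.9 and 21.5 at CT22. At CT14 and CT18 the 4 WT values, 32.7 to 41.0 FPKM, lay above the 4 ΔRRE values, 21.4 to 25.8 FPKM, whereas at CT2 the genotypes overlapped. Its mean level was lower in ΔRRE by 0.24 on the log2 scale (difference -0.24, SE 0.09, unadjusted p = 0.00918, adjusted p = 0.419). The 24-h component peaked at 17.0 h in WT and 1.68 h in ΔRRE (unadjusted p of the difference = 0.0126, adjusted p = 1). *Derl2* also had the smallest p of the 35 genes in the joint 12-h test (amplitude 0.26, SE 0.05, adjusted p = 0.123). *Xbp1* and *P4hb* followed in the level test, with differences of -0.15 (SE 0.10) and 0.09 (SE 0.05) and unadjusted p of 0.168 and 0.102.

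The spread between the 2 libraries of a group was wide for many of these genes. In WT CT18, 34 of 35 genes were higher in library 2, by a median of 0.78 on the log2 scale, where the median of all genes differed by 0.15 and that of the other secretory pathway genes by 0.33. In WT CT2 and in ΔRRE CT2 32 genes were higher in library 2, by medians of 0.44 and 0.60, and in ΔRRE CT18 34 genes, by 0.39. In WT the direction was not fixed to the library number: at CT6 30 genes and at CT14 33 genes were higher in library 1, by medians of 0.41 and 0.26. In ΔRRE most genes were higher in library 2 also at CT10 (27 genes), CT14 (28) and CT22 (25). Only at ΔRRE CT6 were most genes, 24, higher in library 1. After rescaling by the median of ratios, the count for WT CT18 stayed at 34, and in WT CT14 7 genes were higher in library 2.

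**Figure D5:**
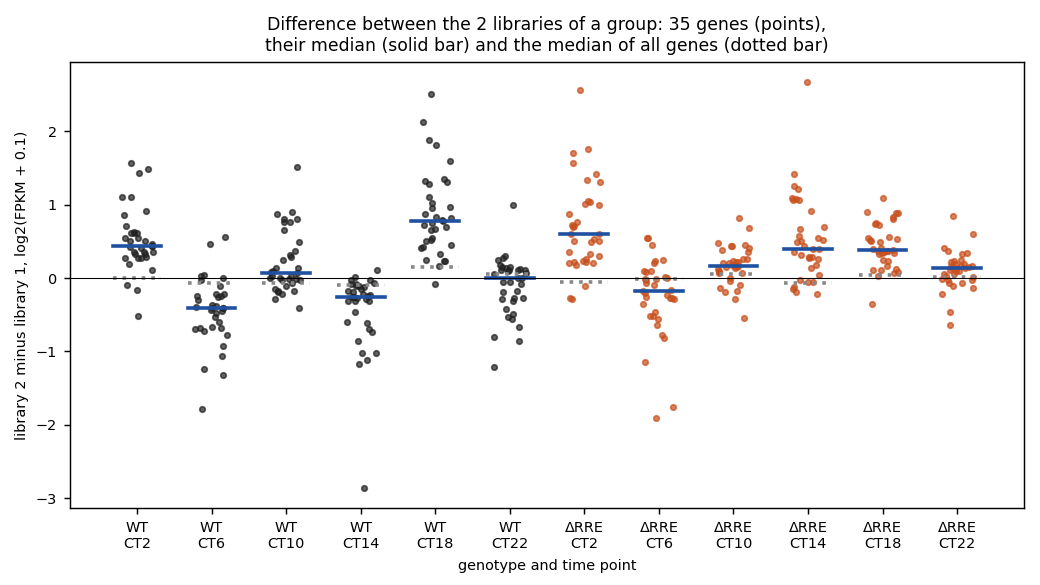
Library 2 minus library 1 on the log2 scale, in each of the 12 groups, for the 35 genes, with their median (solid bar) and the median of all genes (dotted bar). Of the 12 groups, WT CT18 has the highest median, 0.78, and WT CT6 the lowest, -0.41, while the medians of all genes stay between -0.10 and 0.15.

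The replicate SD, pooled over the 12 groups, had a median of 0.313 for the 35 genes, 0.208 for the other secretory pathway genes and 0.247 for all genes. It was above the 90th percentile of all genes, 0.52, for 8 of the 35: *Creld2* (0.936), *Hyou1* (0.713), *Sdf2l1* (0.70), *Hspa5* (0.632), *Syvn1* (0.623), *Dnajb9* (0.602), *Manf* (0.559) and *Derl3* (1.24). *P4hb* (0.118), *Sec61b* (0.12) and *Derl1* (0.149) were the most even. The 9 genes with an ERSE had a median replicate SD of 0.403 and a median 12-h amplitude of 0.27. The 21 with a window and no exact ERSE match had 0.291 and 0.25. *Herpud1* and *Dnajb11*, with an ERSE-II, are among these 21, and near matches to ERSE were not searched.

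Marker genes were read beside these pairs. Hepatocyte markers summed to between 29840 and 48743 FPKM, and the pancreatic acinar markers, a tissue rich in the same ER genes, summed to at most 1.08 FPKM, with *Prss2*, *Cpa1*, *Cela3b*, *Pnlip*, *Try4* and *Try5* at 0 in all 24 libraries. Plasma cell markers, also of a secretory cell, summed to between 8.2 and 140 FPKM and moved in the same direction as the median of the ER genes in 5 of the 12 groups. They were 16.9 and 36.9 FPKM in libraries 1 and 2 of WT CT18 and 25.5 and 77.0 FPKM in ΔRRE CT2, but 140 and 37.4 FPKM in ΔRRE CT14. *Tnfrsf17*, a defining marker, was at 0 in 19 libraries, and *Mzb1* reached at most 0.82 FPKM. The other plasma cell markers were above 0 in all 24 libraries. *Igkc* ran from 4.41 to 88.4 FPKM, *Igha* from 1.52 to 38.6, *Ighm* from 1.07 to 9.98 and *Jchain* from 0.69 to 9.04. Kupffer cell markers summed to between 19.1 and 116 FPKM and moved with the ER genes in 7 of the 12 groups. Cholangiocyte markers summed to between 2.31 and 8.79 FPKM and did so in 7. Acute-phase genes, a state of hepatocytes, summed to between 3035 and 11661 FPKM and did so in 8. They were 3035 and 4915 FPKM in WT CT18, and 11661 and 3609 FPKM in ΔRRE CT14. The part of these cells and states in the spread was not tested.

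Other genes of the secretory pathway were counted for comparison, in 5 lists with 118 genes, of which 113 were tested. For the 24-h component 12 were called (4 of 15 in stress signalling, 3 of 26 in folding, 1 of 32 in glycosylation and translocation, 2 of 20 in ER to Golgi transport and 2 of 20 in other ER-associated degradation). The share of the 113 was below the 20.4% of all genes called in the same test. *Trib3*, a pseudokinase induced through ATF4 and CHOP, had a 24-h amplitude of 1.26 (SE 0.15) with a peak at 6.95 h, and *Ppp1r15b*, a subunit of the phosphatase that acts on eIF2α, of 0.23 (SE 0.03) at 17.2 h. *Pdia5*, an isomerase, and *Tmx2*, a membrane thioredoxin, had amplitudes of 0.32 and 0.19 with peaks at 14.0 and 23.1 h. *Sar1b* and *Mcfd2* of ER to Golgi transport peaked at 20.2 and 20.7 h with amplitudes of 0.15 and 0.22, and *Ube2j2* and *Erlec1* of degradation at 8.67 and 11.8 h with 0.20 and 0.22. For the 12-h component 1 of the 113 was called in the joint limma test, where 0.409% of all genes were. It was *Magt1*, a subunit of the oligosaccharyltransferase, with a 12-h amplitude of 0.31 (SE 0.05, adjusted p = 0.0407), and its 24-h component was called too.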

How the data were processed

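Poly(A) RNA of livers of male mice was sequenced by the authors in 24 libraries, 2 for each of 2 genotypes at 6 time points, and the samples were grouped by their labels. Per the submitters' notes, the tools were Trimmomatic 0.39, HISAT2 2.1.0 and StringTie 1.3.5, with the build mm10. The annotation behind the gene names is not given in the sources used here. The authors deposited FPKM per gene and library, without pooling, so the depth behind each value is unknown and no counting interval is given. A joint table held the same 1313592 values and was not used. No pair of libraries shared more than 0.038% of their values above 0.

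From these FPKM, genes whose mean reached 1 FPKM (11244 of 54733) were taken to log2(FPKM + 0.1) and fitted in limma 3.58.1 (R 4.3.3) with a trended prior. The harmonic design held a mean and a cosine and sine of 24 h and of 12 h for each genotype (14 residual degrees of freedom), as an adaptation of the study's test for rhythms, since BIO_CYCLE was not run here. Levels were compared with the time point as a factor (17 residual degrees of freedom). In that test a genotype difference that changes over time adds to the error. P-values were adjusted by Benjamini-Hochberg over all genes tested, with a threshold of 0.05. A fold on this scale is understated for genes near 0.1 FPKM. The steps were tested on simulated data.

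Every gene is accounted for. Values per library, or their lowest, median and highest, are given for the 6 genes with the smallest adjusted p in the joint 12-h test, the 6 in the joint 24-h test, the 3 with the smallest p in each difference between genotypes, and Xbp1, Atf6, Ern1, Eif2ak3, Atf4 and Ddit3. Of each comparison list, the 2 genes with the smallest adjusted p are named for each joint test where called. Of the 122 symbols on those lists, 4 had no row. The 35 genes, the comparison lists and the marker lists were chosen with earlier results of these data known. Motifs were searched in RefSeq promoter windows with Python 3.11.15, and figures were drawn with matplotlib 3.10.9.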

Additional observations from a re-analysis of the deposited data

How the results depend on the processing

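The counts of called genes among the 35 were recomputed with 1 or 0.01 FPKM added before the logarithm, no filter, a mean of at least 5 FPKM, libraries rescaled by the median of ratios, a replicate block, a prior without trend, each genotype by itself, 24-h terms only, the study's 3 criteria and without each library in turn. Of 298 such counts, 253 stayed within 1.5 times the reported one. The 298 include the 12-h tests and the differences between genotypes, which were reported as 0 and almost always stayed at 0. They also include the fit without both libraries 2 of CT18, given below. The counts that moved were mostly those of the 24-h component. For the joint 24-h component (4 reported) the count was 2 without a filter and 2 with 24-h terms only. For the 24-h component in WT (2 reported) it was 0 without a filter, 0 without trend, 0 with 24-h terms only, 1 with each genotype by itself and 17 by the study's criteria. For that in ΔRRE (4 reported) it was 1 without a filter, 2 without trend, 1 with 24-h terms only and 19 by the study's criteria. Without single libraries the joint 24-h count ran from 2 to 8, that of WT from 0 to 3 and that of ΔRRE from 1 to 8, and 5, 18 and 8 of 24 such fits moved it by over 1.5 times. The joint count was 8 without WT CT18 library 1, 7 without WT CT18 library 2, and 2 without ΔRRE CT6 library 2, CT10 library 1 or CT18 library 2. In WT it was 0 without any of 8 libraries (WT CT6 library 1, CT10 libraries 1 and 2, CT14 library 1, CT22 libraries 1 and 2, and ΔRRE CT18 library 1 and CT22 library 2) and 1 without another 10. In ΔRRE it was 8 without WT CT18 library 2, 1 without ΔRRE CT2 library 1, CT6 library 2, CT14 library 2 or CT18 library 2, and 2 without ΔRRE CT10 library 1, CT18 library 1 or CT22 library 1. The joint 12-h count and that of ΔRRE ran from 0 to 1: without ΔRRE CT2 library 1, Ddit3 was called (joint adjusted p = 0.0149). The adjusted p of Herpud1 stayed at 0.0158 or below in all of these fits but those of the single genotypes, and that of Ddit3 at 0.0374 or below. Leaving out both libraries 2 of CT18, an alternative chosen after seeing the data, gave 4 called genes in the joint 24-h test (Calr, Ddit3, Derl1 and Herpud1), 2 in WT (Calr and Derl1, with Herpud1 and Ddit3 lost) and 1 in ΔRRE (Herpud1). At an unadjusted p under 0.05, leaving out single libraries gave from 7 to 16 genes in the joint 24-h test, 12 to 21 in the joint 12-h test, 4 to 10 for 24 h in WT, 6 to 15 for 24 h in ΔRRE, 2 to 14 for 12 h in WT and 10 to 19 for 12 h in ΔRRE. In the fit with all libraries, the shares of all genes were 34.6%, 13%, 30.1%, 27.3%, 7.57% and 13.7% in that order. The shares of all genes without single libraries are not given here. Whether these counts moved with them was not tested. The differences between the genotypes had 0 called genes in every fit. Calr lost its joint 24-h call without a filter (adjusted p = 0.0673) and with 24-h terms only (0.114), and Syvn1 lost it in those fits (0.106 and 0.122), without trend (0.0532) and without both libraries 2 of CT18 (0.137). The cause of these changes was not tested.

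Over 66 pairs of groups the correlation of the differences between libraries, across genes, ran from -0.138 to 0.305, with a median of 0.0669. It was over 0.1 in 20, and these values do not settle whether the replicate number pairs the libraries. With the number as a block, 6 genes were called for the joint 24-h component, 3 in WT and 5 in ΔRRE, and 0 for the 12-h component and the differences. Over all genes, the calls for the joint 24-h component rose from 2290 to 2546 with the block. Those for the joint 12-h component rose from 46 to 94.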

Other observations

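Of the genes outside the 35 whose promoter window holds an ERSE, 6 passed the filter on low values. They were Acacb, an acetyl-CoA carboxylase, Acnat2, Alg12, a mannosyltransferase of the N-glycan precursor, Hnrnpa3, Pan2 and Xlr3a. Alg12, chosen here after its values were seen because it acts in the ER, had a mean of 4.43 FPKM, a 12-h amplitude of 0.38 and a replicate SD of 0.423. Pan2, with the lowest 12-h amplitude of the 6, had a value of 0.03 and a replicate SD of 0.124. The median of the 6 genes was 0.31 for the 12-h amplitude, 0.49 for the 24-h amplitude and 0.434 for the replicate SD. For all 8226 tested genes with a window, the medians were 0.11, 0.17 and 0.239 in that order. These few genes were not tested as a group.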
